A study of Sus scrofa with 22 samples.

Results

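Smooth muscle contractile genes encode the filaments, the motor and the regulatory proteins with which smooth muscle shortens. Calcium entering the cell leads to the activation of the myosin light chain kinase; the phosphorylated myosin then pulls on actin filaments that are braced by tropomyosin, calponin and other actin-binding proteins. In the intestinal lining these proteins are found in the muscularis mucosae, in the muscle strands of the villus core and in the walls of blood vessels, and several of them, ACTA2 in particular, are also made by pericytes and myofibroblasts. The set holds 10 genes that were chosen by name, ACTA2, ACTG2, MYH11, TAGLN, DES, CNN1, MYLK, LMOD1, SMTN and TPM2, out of 24358 genes in the deposited counts. All 10 were present in the files, had counts in each of the 22 libraries and passed the filter on low counts, as did 13626 genes in all.

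The libraries came from the mucosa of the jejunum, the middle stretch of the small intestine, of Ossabaw pigs, a breed that develops metabolic disease on rich diets. For 6 months the pigs ate a Western pattern, high in cholesterol, butter fat, sugar and white flour and low in fibre, or a heart healthy pattern, rich in unsaturated oils, unrefined carbohydrate, fruit, vegetables and fibre, and both supplied 38% of energy as fat. Group WD_S held 7 pigs on the Western pattern with atorvastatin, group HHD_S held 8 pigs on the heart healthy pattern with atorvastatin, and group HHD held 7 pigs on the heart healthy pattern without the drug. The daily dose of atorvastatin, a drug that blocks an early step of the cholesterol pathway, was 20 mg during months 1 to 3 and 40 mg during the later 3 months. All HHD_S and HHD pigs also received fish oil capsules of 1000 mg 3 times per week, which were not part of the Western pattern. The sample labels call WD_S atherogenic with statin, and their titles carry the abbreviation ARST, which the series text ties to the Western diet without drug; the sample labels were followed. Libraries from the Western pattern alone were not analysed here, and which of the pigs were boars or gilts is not labelled, 16 of each having been randomized. Each library came from a separately numbered pig, and replicate numbers follow accession order.

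Totals were between 15.3 and 31.6 M unique exon reads per library, with a median of 21.2 M. Levels are CPM, counts divided by a library total that was scaled by the trimmed mean of M-values (TMM) and set to a common size, and they are not compared between genes because transcript lengths were not used. The libraries were made in pool 3 (13 libraries) and pool 4 (9 libraries), as the names of the deposited files put it. Pool was a term of every main test of diet or drug, but not of some alternatives given at the end. On the first principal component of all 13626 genes, which held 22.8% of the variance, the 6 libraries at one end were the same 6 that had the lowest summed level of the 10 contractile genes. These 6 were WD_S libraries 3 and 7, HHD_S libraries 4, 7 and 8 and HHD library 7, so every group held at least 1 of them.

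The muscle genes lie on 8 autosomes of the RefSeq annotation of Sscrofa11.1, where their spans were found by symbol. ACTA2 (ENSSSCG00000010447), the alpha actin of smooth muscle, spans 14:100868145-100886732, and ACTG2 (ENSSSCG00000008294), the gamma actin typical of gut muscle, spans 3:69097366-69121542. MYH11 (ENSSSCG00000000146), the heavy chain of smooth muscle myosin, spans 3:7002667-7143093, and MYLK (ENSSSCG00000011867), the kinase of the myosin light chain, spans 13:136509878-136809674. TAGLN (ENSSSCG00000015073), an actin-binding protein, spans 9:44561756-44567385. CNN1 (ENSSSCG00000013614), a calponin that restrains the actomyosin ATPase, spans 2:70183370-70190756. TPM2 (ENSSSCG00000005316), the beta tropomyosin, spans 1:236402249-236410390. LMOD1 (ENSSSCG00000031201), a nucleator of actin filaments, spans 10:24165293-24194823, and SMTN (ENSSSCG00000010017), an actin-binding protein of contractile smooth muscle, spans 14:47879317-47902700. DES (ENSSSCG00000020785), the intermediate filament protein of muscle, spans 15:121428539-121435426. The actin genes are close in sequence, and reads that match more than one place are not in unique counts, so the ACTA2 and ACTG2 levels are uncertain to that extent.

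No gene of the contractile set differed between diet or drug groups past an adjusted p of 0.05. Over all genes tested, edgeR called 0% in WD_S over HHD_S, 0% in HHD_S over HHD and 0.00734% in WD_S over HHD. What varied was the level from pig to pig, over ranges from 2.48-fold for TPM2 to 7.88-fold for DES, and the 10 genes were high and low in largely the same libraries. In a bulk sample such as these, fewer muscle cells and less RNA per muscle cell cannot be told apart.

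**Figure D1:**
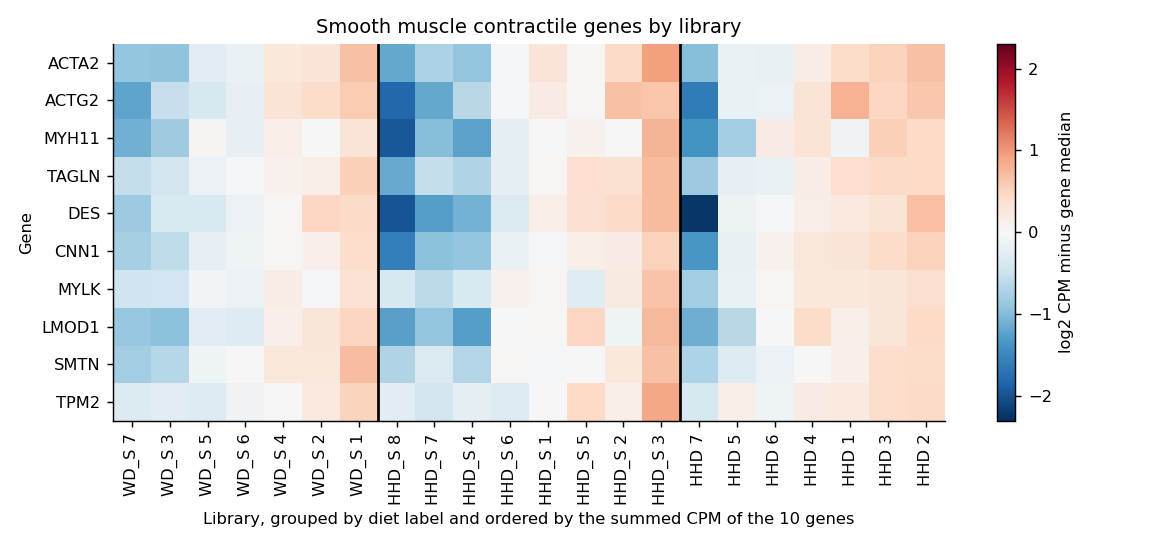
Log2 CPM of each of the 10 contractile genes (rows) in each of the 22 libraries (columns), less the gene's median over all libraries, with WD_S at the left, HHD_S in the middle and HHD at the right, and libraries ordered within a group by the summed CPM of the set. Each group runs from pale or dark blue columns to red ones, and the darkest cell is DES in HHD library 7, at 15.5 CPM.

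The actins of the thin filament come first. ACTA2 had 89.3, 151 and 269 CPM as the lowest, median and highest of the WD_S libraries, 74.4, 169 and 323 CPM in HHD_S and 85.3, 191 and 269 CPM in HHD. ACTG2 had 36.1, 73.7 and 125 CPM in WD_S, 23.8, 83.5 and 133 CPM in HHD_S and 27.5, 103 and 145 CPM in HHD. For both actins HHD_S library 8 was the lowest of all 22, and the highest was HHD_S library 3 for ACTA2 and HHD library 1 for ACTG2. The range of one group lay almost wholly within that of another. The log2 fold change of ACTA2 was 0.02 ± 0.30 (SE) in WD_S over HHD_S and -0.13 ± 0.29 in HHD_S over HHD, and that of ACTG2 was 0.11 ± 0.35 and -0.25 ± 0.34 in the same comparisons.

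The motor and its switch followed. MYH11 had a lowest, median and highest of 111, 239 and 294 CPM in WD_S, 61.5, 222 and 411 CPM in HHD_S and 91.9, 271 and 351 CPM in HHD. MYLK, whose product starts contraction by phosphorylating the myosin light chain, had 111, 145 and 192 CPM in WD_S, 99.9, 142 and 239 CPM in HHD_S and 87.5, 179 and 196 CPM in HHD. HHD_S library 3 held the highest level of both. MYH11 spread over 6.69-fold and MYLK over 2.73-fold, the range of the heavy chain being the wider. MYH11 had a log2 fold change of 0.12 ± 0.34 in WD_S over HHD_S and -0.23 ± 0.33 in HHD_S over HHD. MYLK had one of -0.02 ± 0.18 and -0.09 ± 0.18.

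Among the proteins bound along the actin filament, TAGLN had a lowest, median and highest of 49.0, 70.0 and 105 CPM in WD_S, 32.3, 67.8 and 119 CPM in HHD_S and 40.1, 81.4 and 98.6 CPM in HHD. CNN1 had 23.8, 37.5 and 53.7 CPM in WD_S, 13.5, 37.9 and 58.3 CPM in HHD_S and 16.1, 48.2 and 57.9 CPM in HHD. Both were lowest in HHD_S library 8 and highest in HHD_S library 3. TPM2 had 62.2, 73.3 and 110 CPM in WD_S, 57.6, 72.2 and 143 CPM in HHD_S and 59.8, 88.1 and 105 CPM in HHD. TPM2 was the gene with the narrowest range, and its highest value stood in HHD_S library 3 as well. LMOD1, the least counted of the 10 at 178 to 783 reads per library, had 11.3, 18.2 and 30.4 CPM in WD_S, 9.07, 21.1 and 36.3 CPM in HHD_S and 9.93, 23.9 and 29.7 CPM in HHD. SMTN had 26.6, 45.7 and 75.0 CPM in WD_S, 28.4, 45.8 and 73.3 CPM in HHD_S and 28.1, 46.5 and 61.6 CPM in HHD. SMTN alone was highest in a WD_S library, number 1, and lowest in another, number 7, with the HHD_S and HHD libraries spread between them.

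DES, whose filaments tie the contractile units together, had a lowest, median and highest of 41.3, 66.5 and 102 CPM in WD_S, 18.5, 70.0 and 122 CPM in HHD_S and 15.5, 80.8 and 118 CPM in HHD. The standard deviation of log2 CPM over the 22 libraries was 0.81 for DES, 0.76 for ACTG2 and 0.71 for MYH11, above those of at least 94.5% of genes tested. It was 0.36 for MYLK and 0.35 for TPM2, against a median of 0.30 over all genes tested. The 3 diet labels accounted for between 0.50% (SMTN) and 6.48% (CNN1) of the variance in log2 CPM of a gene of the set, and for a median of 6.03% over all genes.

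WD_S over HHD_S sets one dietary pattern against the other in pigs that all took atorvastatin. Of the 10 contractile genes 0 passed, and across all 13626 genes edgeR's quasi-likelihood test with Benjamini-Hochberg adjustment called 0%, with 397 genes (2.91%) at an unadjusted p under 0.05, 4 called by DESeq2 and 1 by limma. Their median log2 fold change was 0.08, with 8 of 10 above 0, against a median of -0.01 and 47.1% above 0 over all genes; LMOD1, at 0.0015, was at -0.021 when libraries were scaled by total counts. Without the 5 pigs numbered 2356 and above, the median of the set was -0.06. The smallest unadjusted p of the set was 0.62, for SMTN at 0.11 ± 0.22, which had an edgeR adjusted p of 0.9995. The 95% intervals of the 10 genes ran from 0.64-fold (LMOD1) to 1.88-fold (DES) at their outermost, so that a difference within a gene's own interval remains possible.

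The comparison of HHD_S with HHD asked what went with atorvastatin on the heart healthy pattern. It shares the HHD_S libraries with WD_S over HHD_S, on the opposite side, so opposite signs in those comparisons are not separate observations. All 10 contractile genes had a log2 fold change below 0, from -0.03 for SMTN to -0.30 ± 0.27 for CNN1, with a median of -0.13 against 0.009 over all genes, of which 52.6% were above 0, and 0 of them passed. All 13 fibroblast markers, with a median of -0.27, and 10 of 11 endothelial markers, with a median of -0.22, were also below 0, and 0 of those passed. Other lists did not share this sign. Above 0 were 8 of 10 enteric neuron markers (median 0.16), 8 of 13 enterocyte markers (0.04) and 5 of 9 markers of epithelial cells at large (0.003). In WD_S over HHD_S, 11 of 13 fibroblast markers (median 0.22) and 9 of 11 endothelial markers (0.10) were above 0. CNN1 had the smallest unadjusted p of the set, 0.28, and in edgeR its adjusted p was 0.9994. Of all genes tested, edgeR called 0%, with 247 genes (1.81%) at an unadjusted p under 0.05, and DESeq2 called 1 and limma 0. The 10 genes move together from library to library, so that their common sign is not 10 separate observations. The intervals reached from 0.51-fold to 1.53-fold.

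WD_S over HHD is the sum of the other two comparisons and shares their libraries. The contractile genes had a median log2 fold change of -0.11, with 9 of 10 below 0, against -0.004 over all genes. SMTN was the exception, at 0.08 ± 0.23, and TPM2 had the smallest unadjusted p, 0.54, at -0.12 ± 0.19 and an edgeR adjusted p of 0.9997. Of the set 0 genes passed, while edgeR called 1 gene of all those tested (0.00734%) and 465 (3.41%) had an unadjusted p under 0.05. The intervals reached from 0.54-fold to 1.73-fold.

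**Figure D2:**
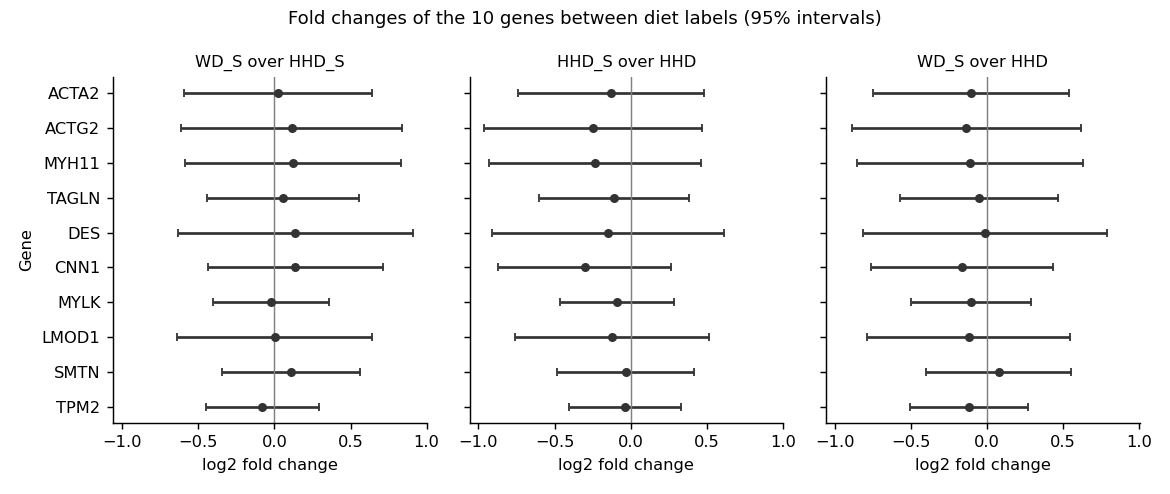
Log2 fold changes from edgeR (points) with 95% intervals derived from its F statistics (bars) of the 10 contractile genes (vertical axis). The comparisons are WD_S over HHD_S, HHD_S over HHD and WD_S over HHD. Every interval crosses 0, and all 10 points of HHD_S over HHD lie left of it.

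The comparisons were also made within each pool. The median log2 fold change of the set in pools 3 and 4 was 0.11 and 0.07 for WD_S over HHD_S, -0.06 and -0.27 for HHD_S over HHD and 0.003 and -0.25 for WD_S over HHD. A term for the difference between pools had an unadjusted p under 0.05 in 0 of 30 tests, and the smallest was 0.37; over all genes 0.756% had one in WD_S over HHD_S, 2.16% in HHD_S over HHD and 1.49% in WD_S over HHD. Between the pools themselves, all 10 genes were lower in pool 4, by a median log2 fold change of -0.23, and 0 passed in edgeR, which called 0% of all genes, with 602 (4.42%) at an unadjusted p under 0.05.

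The genes of the set followed each other closely from library to library. Over the 22 libraries the 45 pairs had a median Pearson's r of 0.895 and a median Spearman's rho of 0.901 on log2 CPM, and two-sided permutation tests (100000 resamples) adjusted over the pairs gave at most 0.00012 for r and 0.00013 for rho. The smallest p among them, 1e-05, is the smallest such resampling can give. TAGLN and CNN1 were the closest pair (r = 0.966), and MYH11 and TPM2 the loosest (r = 0.740). CNN1 had the highest median r with the other 9 genes, 0.943, and TPM2 the lowest, 0.793. Shared libraries and a shared scaling enter every one of these values.

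The relation was recomputed within each pool and with libraries left out. In pool 3 the median r was 0.935 and each of the 45 pairs passed an adjusted p of 0.05. In pool 4, with n = 9 and an exact permutation test, the median was 0.888 and 34 pairs passed, and MYLK with TPM2 was the loosest at 0.178. After the group and pool means were taken out, the median was 0.902. Without the 2 libraries farthest from the median of the first gene of each pair it was 0.892, and the lowest r was 0.688. Without the 5 pigs numbered 2356 and above it was 0.880, the lowest being 0.680 for MYLK with TPM2.

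**Figure D3:**
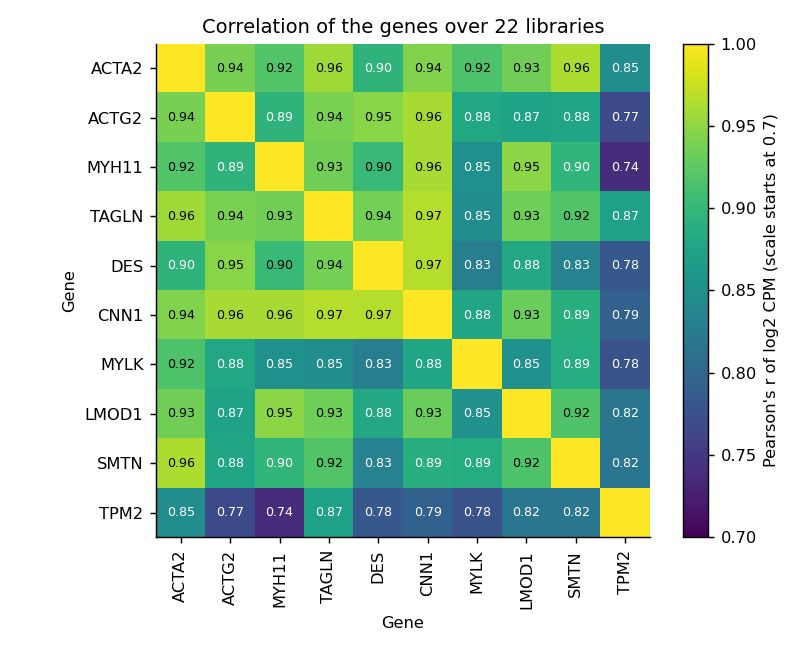
Pearson's r between the log2 CPM of each pair of contractile genes over the 22 libraries, printed in each cell and coloured on a scale that starts at 0.7. The TPM2 row and column are the darkest, with values between 0.74 and 0.87, and TAGLN with CNN1 is at 0.97.

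Summed over the set, the contractile genes had 564 CPM as the lowest, 885 as the median and 1355 as the highest of the WD_S libraries, 444, 973 and 1654 CPM in HHD_S and 462, 1143 and 1392 CPM in HHD. The 6 lowest libraries ended at 637 CPM and the seventh stood at 807 CPM. As a share of all counts, before scaling, the set took between 0.0486% and 0.186%. HHD_S library 3 held the highest level of 8 of the 10 genes, and HHD_S library 8 the lowest of 5. At the low end, all 10 genes of HHD library 7, of WD_S library 7 and of HHD_S library 7 were among their 6 lowest values.

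The levels were also set beside the pig numbers in the labels. Of the 5 libraries with pig numbers of 2356 and above, WD_S library 7, HHD_S libraries 7 and 8 and HHD libraries 6 and 7, 4 were among the 6 lowest, and HHD library 6 stood at 969 CPM. The labels do not say what the numbers stand for, and the split was chosen with results of these data in view, so the following values are a description. With the split as a term beside group and pool, all 10 genes were lower in the high-numbered pigs, by a median log2 fold change of -0.90, and 8 were called lower by edgeR, while LMOD1 had an adjusted p of 0.051 and TPM2 of 0.059. Over all genes, 2.5% were called lower. Markers of other cells were lower in the same pigs: all 13 fibroblast markers, with a median of -0.81 and 9 called, 9 of 10 pericyte markers, with a median of -0.58 and 1 called, and 9 of 11 endothelial markers, with a median of -0.33 and 0 called. The enterocyte markers had a median of -0.14, with 8 of 13 lower and 0 of those called, and 1 was called higher. All 9 markers of epithelial cells at large were lower, with a median of -0.11 and 1 called. Of the enteric neuron markers 9 of 10 were lower, with a median of -0.44, and of the enteric glia markers 6 of 6, with a median of -0.52. In both of these lists 0 were called. The part of these cells in the contractile values was not tested. ACTG2 had the smallest adjusted p, 0.00092, with 23.8, 36.1 and 76.4 CPM as the lowest, median and highest of the 5 high-numbered pigs against 53.6, 103 and 145 CPM in the other 17.

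The number of contractile genes called lower in the high-numbered pigs depended on single libraries. It was 1 without HHD library 7, where 0.314% of all genes were called lower, and 4 without HHD_S library 7, where 0.765% were. It was 5 without any one of WD_S libraries 2, 4, 6 and 7, HHD libraries 2, 3 and 4 and HHD_S libraries 2 and 8, with 0.607% to 2.06% of all genes. It was 10 without WD_S library 3 (3.67% of all genes), HHD library 6 (7.59%) or HHD_S library 4 (4.71%). Scaling by total counts gave 5, with 1.49% of all genes. All 10 were lower in each of these fits, with a median log2 fold change of -0.78 without HHD library 7 and -0.88 without HHD_S library 7.

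The ratio of the 2 actins also differed between the low libraries, an observation made after the values were seen. ACTG2 divided by ACTA2, in CPM, was 0.320 in HHD_S library 8, 0.322 in HHD library 7, 0.360 in HHD_S library 7 and 0.395 in WD_S library 7, the 4 lowest of all 22, and the next was 0.402 in HHD_S library 3, the library with the most muscle transcript. The 4 lowest came from pigs numbered 2356 and above, while HHD library 6, from another such pig, had 0.507. In the other 2 low libraries the ratio was 0.596 (HHD_S library 4) and 0.648 (WD_S library 3), and the value of WD_S library 3 was the highest of all. DES divided by ACTA2 was lowest in HHD library 7 at 0.181 and highest in WD_S library 3 at 0.647. MYLK divided by ACTA2 was highest in HHD_S library 8, at 1.58. Thus libraries with similar sums of the set differed in which muscle genes made up the sum.

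**Figure D4:**
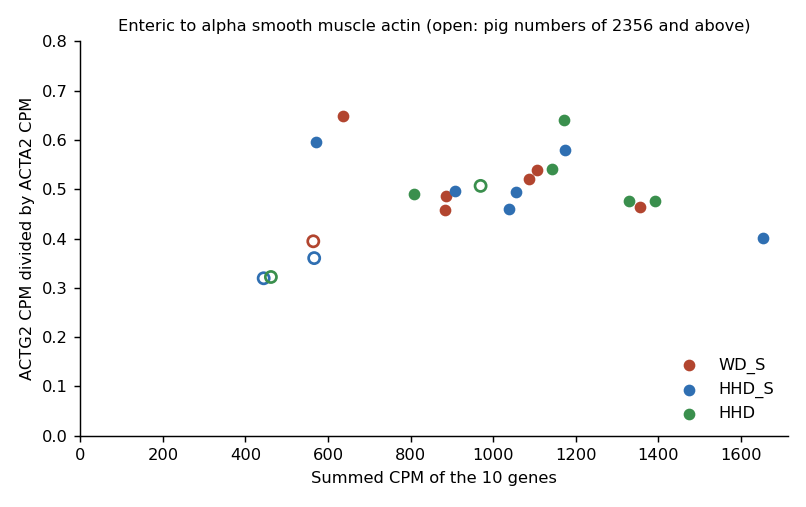
ACTG2 CPM divided by ACTA2 CPM (vertical axis) against the summed CPM of the 10 contractile genes (horizontal axis) in 22 libraries, coloured by group, with open circles for pig numbers of 2356 and above. The 4 open circles at sums under 600 CPM have ratios under 0.40, and the filled points with sums of 570 and 637 CPM have ratios of 0.596 and 0.648. The remaining open circle, HHD library 6 at 969 CPM, has a ratio of 0.507.

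Other genes of the contractile apparatus were described from a list of 45 names, of which 42 were in the files and 39 were tested. None passed in any of the 3 comparisons in edgeR. In WD_S over HHD_S 30 of 39 were above 0, with a median log2 fold change of 0.10, and in HHD_S over HHD 36 of 39 were below 0, with a median of -0.17. SGCA, a sarcoglycan of the muscle membrane, had 0.90 ± 0.31 in WD_S over HHD_S at an unadjusted p of 0.0086 and an edgeR adjusted p of 0.9995, on a mean of only 0.61 CPM. CRYAB, a small heat shock protein that binds desmin, had -0.79 ± 0.36 in HHD_S over HHD at an unadjusted p of 0.041 and an edgeR adjusted p of 0.9994. DMD, the dystrophin gene, had 0.16 ± 0.09 in WD_S over HHD_S and -0.16 ± 0.08 in HHD_S over HHD. The HHD_S libraries enter these comparisons on opposite sides, so the opposite signs of DMD and of the list are not separate observations.

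Likeness to the contractile set was measured as the mean r of a gene with the 10 genes over the 22 libraries. Its median was 0.70 for the 39 other contractile genes, 11 of which were above 0.8, and -0.04 over all genes tested, of which 2.01% were above 0.8. MYL9, the regulatory light chain that MYLK phosphorylates, was the nearest of all genes with a symbol outside the set, at 0.928. PGM5 (0.911), FLNA (0.907), which crosslinks actin, and ACTC1 (0.904), the cardiac actin whose reads could be shared with those of ACTA2 and ACTG2, were also close. Among genes that most cells use, chosen after their values were seen, MYL6, the essential light chain, had -0.15, TPM3 -0.11 and TPM4 0.16, while CNN2 had 0.70 and CNN3 0.73. ACTB, the most highly counted of the list, had 0.35 and ACTG1 0.63.

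The next list held the switches of contraction and the calcium supply. Of 33 names 30 were in the files and 28 were tested, 0 passed in any comparison in edgeR, and the median likeness was 0.40. PLN, the phospholamban that restrains the calcium pump, was at 0 in all libraries. KCNMB1, the beta subunit of the large potassium channel of smooth muscle, had a likeness of 0.901, CACNA1C, the L-type calcium channel, 0.819, and PPP1R14A, an inhibitor of myosin phosphatase, 0.765. ROCK2, a kinase that keeps the phosphatase off, was the farthest at -0.71, and the broadly used RHOA had 0.51 and PPP1CB -0.54. KCNMA1, the pore of the potassium channel, had a log2 fold change of 0.27 ± 0.14 in WD_S over HHD_S and -0.26 ± 0.14 in HHD_S over HHD. Both values rest on the same HHD_S libraries, with opposite sign.

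The regulators of the smooth muscle programme were described from 18 names, 14 of them in the files and 13 tested. Again 0 passed in any of the 3 comparisons in edgeR. MYOCD, the coactivator that drives contractile genes in smooth muscle, had 0.98, 1.94 and 2.51 CPM as the lowest, median and highest in WD_S, 1.22, 1.76 and 3.34 CPM in HHD_S and 0.99, 1.78 and 3.24 CPM in HHD. SRF, its DNA-binding partner, had 24.9, 29.9 and 41.5 CPM in WD_S, 26.5, 28.2 and 31.2 CPM in HHD_S and 23.0, 31.5 and 36.4 CPM in HHD. MYOCD had a likeness of 0.64 and SRF of 0.40, and MYOCD, like 8 genes of the set, was highest in HHD_S library 3. CSRP1, a LIM protein of smooth muscle, was the nearest of the regulators at 0.912, and FOXF2, a factor of gut mesenchyme, had 0.878. The highly counted GATA6 (0.06) and KLF4 (0.01), both also made by epithelium, and MEF2D (0.31) followed the set little. MKL1, a coactivator of SRF, had a log2 fold change of 0.18 ± 0.09 in WD_S over HHD_S, at an unadjusted p of 0.051 and an edgeR adjusted p of 0.9995. KLF4 had one of 0.39 ± 0.17 in WD_S over HHD, at an unadjusted p of 0.034 and an edgeR adjusted p of 0.9997.

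The 10 named genes outside the set that followed it most closely were MYL9, SPARC, COL16A1, MMP2, EFEMP2, C1QTNF6, BGN, COL1A2, FN1 and CSRP1, with a likeness between 0.928 and 0.912. Most of them encode proteins of the extracellular matrix or its remodelling. SPARC, a matrix protein, had 71.2 CPM in HHD_S library 8, its lowest, and 430 CPM in HHD library 2, its highest. At the other end stood GMFB (-0.846), THOC2 (-0.843), C3orf38 (-0.834), SNAP23 (-0.828) and CHMP5 (-0.828). GMFB was lowest, at 79.3 CPM, in HHD_S library 3, where most of the contractile genes were highest.

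Markers of other cells moved with the set to different degrees. The 13 fibroblast markers measured summed to 2066, 2759 and 4575 CPM as the lowest, median and highest in WD_S, 1421, 2926 and 4219 CPM in HHD_S and 1209, 3830 and 4951 CPM in HHD. Their median likeness was 0.82, and 9 of 13 were above 0.8. The 10 pericyte markers had a median likeness of 0.67, with sums of 278, 323 and 430 CPM in WD_S, 238, 287 and 649 CPM in HHD_S and 272, 381 and 439 CPM in HHD. The 11 endothelial markers had one of 0.73 and summed to between 129 CPM, in HHD_S library 4, and 506 CPM, in HHD_S library 3. HHD_S library 3 thus held the highest pericyte and endothelial sums along with the highest contractile sum. Fibroblasts, pericytes and vessel walls share genes with the set, and their part in its variation was not tested.

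**Figure D5:**
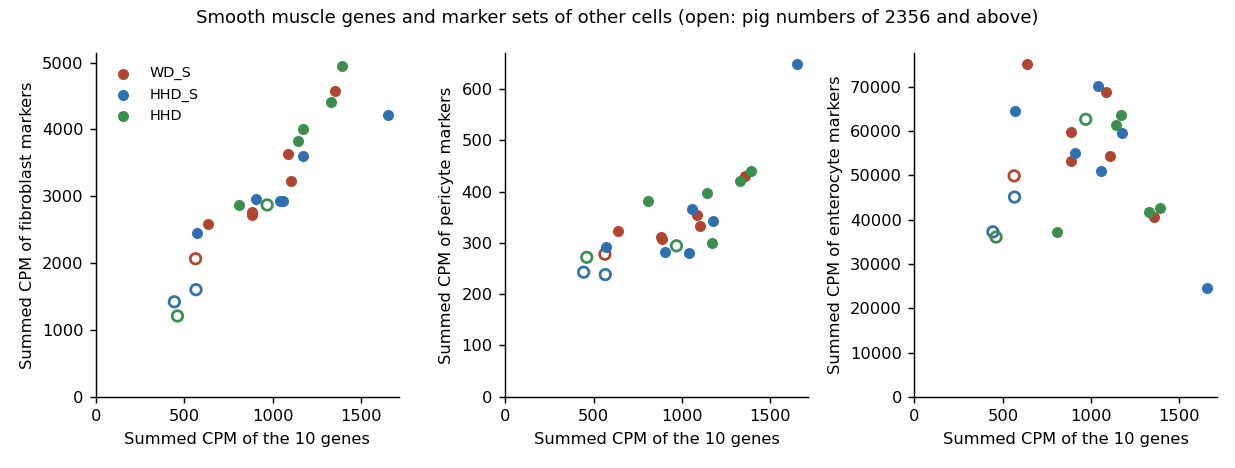
Summed CPM of fibroblast, pericyte and enterocyte markers (vertical axes, one panel each) against the summed CPM of the 10 contractile genes (horizontal axes) in 22 libraries, coloured by group, with open circles for pig numbers of 2356 and above. Fibroblast sums increase with the contractile sum from about its lowest libraries upward. Enterocyte sums vary widely among the 6 lowest contractile libraries, from 36080 CPM in HHD library 7 to 75066 CPM in WD_S library 3. In the libraries with the highest contractile sums, HHD_S library 3 and HHD library 2, they are 24607 and 42748 CPM.

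Enterocytes, cells of the epithelium that makes up the bulk of the mucosa, did not simply mirror the muscle genes. The 13 enterocyte markers summed to 40696, 54499 and 75066 CPM in WD_S, 24607, 53047 and 70268 CPM in HHD_S and 36080, 42748 and 63646 CPM in HHD. Their median likeness was 0.02, from -0.54 for FABP2 to 0.18 for APOA1. A list of 9 markers of epithelial cells at large had a higher median likeness, 0.32, from 0.01 for EPCAM to 0.64 for KRT18. The enterocyte sum was the lowest of all in HHD_S library 3, at 24607 CPM, and also low, at 36080 and 37255 CPM, in HHD library 7 and HHD_S library 8, where the contractile sum was lowest. APOA1, the most highly counted enterocyte marker (mean 17767 CPM), weighs most in this sum and was itself lowest in HHD_S library 3, at 4778 CPM. APOA4, SLC5A1, MTTP and CDHR5 were also lowest there, and the other enterocyte markers were lowest in other libraries. In WD_S library 3, whose contractile sum was also among the 6 lowest, the enterocyte sum was the highest of all.

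Marker lists of cells from the deeper wall and its nerves were also summed. The 4 markers of interstitial cells of Cajal, the pacemakers that lie beside the gut muscle layers, summed to between 21.7 and 35.7 CPM over all libraries, with a median likeness of -0.01, although ANO1 alone had 0.78. The 14 names of enteric neurons, of which 10 were tested, summed to between 17.7 and 64.6 CPM, with a median likeness of 0.38. The 7 enteric glia markers in the files summed to between 400.03 and 1082 CPM, with a median likeness of 0.30, and ERBB3, which epithelium also makes, accounted for 390.2 to 1067 CPM of it. Of the skeletal muscle markers, 9 were in the files, 3 were tested and their sum stayed between 4.79 and 7.53 CPM. The 3 mesothelium markers measured summed to at most 0.0933 CPM in any library, LRRN4 being at 0 throughout. The layer of the wall from which the muscle transcripts came was not tested.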

How the data were processed

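The authors prepared libraries with the TruSeq kit, version 2, from RNA whose quality indicator was above 8, read them singly over 150 bases on a NextSeq machine and used a CLC workbench with the pig genome Sus scrofa 11.1 and its annotation, per the labels' protocols. Each deposited file lists whole-number counts of unique exon reads, per the file headers. The version of the workbench, its settings and any use of strand are not stated in the labels or headers. All 231 pairs of libraries differed by more than sampling noise (smallest reduced chi-square 25.2).

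The counts went into edgeR 4.0.16 (R 4.3.3), with filterByExpr (minimum count 10), TMM scaling and a robust quasi-likelihood fit of the 3 groups and an additive pool term. The fit had 18 residual degrees of freedom, and the common biological coefficient of variation was 25.9%. Adjustment followed Benjamini and Hochberg over 13626 genes. Correlations were taken on log2 CPM (prior count 2) with two-sided permutation tests. DESeq2 1.42.0 and limma 3.58.1 were alternatives, beside other scalings, filters, single pools, a term for pig numbers of 2356 and above and leaving out each library.

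The 10 genes, the marker and pathway lists, the pig number split and the naming rule were chosen with earlier results of these data known. All 10 genes are named. From the lists, the rule takes the 2 genes with the smallest p in a comparison and the 3 most highly counted of each of the 3 muscle lists, and it adds the 10 named genes nearest to the set and the 5 farthest from it. Not all of these are given values, some genes are not reported here, and others were named after their values were seen. Gene symbols came from the files and a table of gene names, and spans from RefSeq.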

Additional observations from a re-analysis of the deposited data

Results flagged for a closer look

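HHD library 7 lay far below the other HHD libraries for 3 of the contractile genes on the log2 scale, where the gap to the next library exceeded Dixon's 95% critical value of 0.568 as a share of the group's range (7 libraries). DES had 15.5 CPM there, against 67.9 to 118 CPM in the other HHD libraries, with a gap of 0.729 of the range. ACTG2 had 27.5 CPM, against 74.8 to 145 CPM, with a gap of 0.602. CNN1 had 16.1 CPM, against 35.9 to 57.9 CPM, with a gap of 0.627. These were 3 flags in 33 checks, each made on CPM and on log2 CPM, and the 3 genes are correlated. Chance gives about 1 in 20 on a single scale, and more where either scale can flag. On CPM without the log there were 0 flags.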

How the results depend on the processing

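No contractile gene passed an adjusted p of 0.05 in the 3 comparisons under any alternative run: of 1050 fold changes recomputed for them, 965 kept their sign, 85 changed it, and the smallest adjusted p was 0.62. The signs are of values within their error, and the cause of the changes was not tested. The width of the intervals limits every statement on groups, and MYOCD, near 1 CPM in its lowest libraries, rests on few reads.

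Over all genes, WD_S over HHD_S had 0 calls, and 2 without the pool term, 2 with a pig number term, 4 in DESeq2, 1 in limma and 2 without the pigs numbered 2356 and above (an alternative chosen after seeing the data). HHD_S over HHD had 0, and 1 in DESeq2. WD_S over HHD had 1, and 0 by total counts, 0 in pool 3 alone, 0 in pool 4 alone, 2 with a pig number term and 2 in DESeq2. Leaving out 1 library gave 0 to 2 calls in WD_S over HHD_S and 0 to 1 in WD_S over HHD. In WD_S over HHD the single call was lost in 17 of these 22 fits. The contractile genes called lower in the high-numbered pigs numbered 8 (2.5% of all genes called lower), and 5 by total counts (1.49%) and 1 to 10 without 1 library (0.314% to 7.59%), where their median log2 fold change was -1.13 to -0.78.

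In WD_S over HHD_S, log2 fold changes of the other sign were ACTA2 -0.051 and LMOD1 -0.014 without the pool term, LMOD1 -0.021 by total counts, ACTA2 -0.039 and LMOD1 -0.048 with a pig number term, TPM2 0.053 in pool 3, MYLK 0.058 and LMOD1 -0.20 in pool 4, and TPM2 0.036 in limma. Without the high-numbered pigs they were ACTA2 -0.089, ACTG2 -0.033, MYH11 -0.028, TAGLN -0.064, DES -0.048, CNN1 -0.0056 and LMOD1 -0.12. In WD_S over HHD they were SMTN -0.011 with a pig number term, DES 0.034 in limma, and ACTG2 0.00069, TAGLN 0.012, DES 0.19, LMOD1 0.026 and TPM2 0.043 in pool 3.

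Without 1 library at a time, WD_S over HHD_S was -0.12 to 0.18 for ACTA2, -0.042 to 0.24 for ACTG2, -0.047 to 0.31 for MYH11, -0.065 to 0.20 for TAGLN, -0.024 to 0.33 for DES, -0.0030 to 0.26 for CNN1, -0.10 to 0.090 for MYLK, -0.14 to 0.17 for LMOD1, -0.036 to 0.25 for SMTN and -0.18 to 0.055 for TPM2. HHD_S over HHD was -0.31 to 0.0070 for LMOD1, -0.16 to 0.053 for SMTN and -0.19 to 0.034 for TPM2. WD_S over HHD was -0.26 to 0.051 for ACTA2, -0.24 to 0.030 for MYH11, -0.17 to 0.048 for TAGLN, -0.18 to 0.096 for DES, -0.28 to 0.024 for LMOD1 and -0.077 to 0.21 for SMTN.

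No paired analysis was possible because the labels give no replicate numbers that pigs of different groups share.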
